A study of Mus musculus with 24 samples.

Results

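The cytosolic ribosomal protein genes were followed in Atf3 knockout (KO) and wild-type (WT) mouse embryonic stem cells over a differentiation time course sampled at days 0, 3, 6 and 9. Members were the protein-coding rows whose symbol starts with Rpl or Rps followed by a digit, with Rplp0, Rplp1, Rplp2 and Rpsa, and without the Rps6k kinases. This rule took 95 of 53465 rows, and none of its terms uses a measured value. By their names the 95 were 77 core genes, of which 46 encode proteins of the large and 31 of the small subunit, 8 paralogs (Rpl3l, Rpl7l1, Rpl10l, Rpl22l1, Rpl36al, Rpl39l, Rps27l and Rps27rt), 9 rows named as pseudogenes but annotated as protein coding, and Rps19bp1, which is not a ribosomal protein. A row was tested where 3 or more libraries reached 1 FPKM, which 91 members did. Those were all 77 core genes, 7 paralogs, 6 rows with pseudogene names and Rps19bp1.

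The ribosome is built from a large and a small subunit, each made of ribosomal RNA and a set of proteins, most of them small and basic. Ribosomal protein mRNAs are among the most abundant of a growing cell. They start with a run of pyrimidines, through which mTOR signalling sets their translation, and many copies of them lie in the mouse genome as processed pseudogenes. A few tissue-restricted paralogs can stand in for their partners, such as Rpl10l and Rpl39l in the male germ line and Rpl3l in striated muscle.

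The groups were Atf3 KO and WT cells at each of the 4 days, with 3 libraries per group and 24 in all. Cells had been kept undifferentiated in serum with LIF, the GSK3 inhibitor CHIR99021 and the MEK inhibitor PD0325901. The sources used here do not give the differentiation medium, the edited part of Atf3 or whether the KO cells are 1 clone. Separate cultures for the libraries of a group are not stated, so each p-value measures the spread between libraries, which may be technical. A tag called batch in the labels follows genotype and day, so batch and group cannot be told apart. Poly(A)+ RNA had been sequenced in 150-base read pairs, and values are the deposited FPKM, scaled to gene length and by a factor per library. Scaling to length allows levels to be compared between genes. The library factor is not set by total recovered reads alone. Core genes held 5.14% of recovered reads in WT day 9 replicate 1 and 6.60% in WT day 6 replicate 3. Their summed FPKM was 21750 and 76015. Differences in FPKM between libraries thus also depend on this factor.

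Recovered reads per library ranged over 7855625 to 25274436. Atf3, which encodes the stress-induced transcription factor targeted here (chr1:191170296-191218039 in mm10, as are all gene positions given here, minus strand), had 0.217, 0.165 and 0.134 FPKM in the 3 KO libraries of day 0, against 1.38, 3.06 and 1.15 FPKM in WT libraries. At day 6 it had 0.343, 0.578 and 4.17 FPKM in KO cells and 12.7, 23.99 and 10.9 FPKM in WT cells. KO libraries lay below WT libraries at each day, and replicate 3 of KO day 6 was the highest of the 12 KO libraries. The exact two-sided permutation p was 0.1 at each of the 4 days, the smallest that 3 libraries against 3 can give. That same library held a summed erythroid marker level of 176 FPKM, against 2483 and 2816 FPKM in replicates 1 and 2 of its group (9 genes, none at 0 in every library of the group). Since it stands apart, the main day 6 counts and the leading core genes in KO cells are also given without it. In WT cells at day 6 the erythroid markers summed to 107, 27.7 and 40.4 FPKM, below each KO library. Naive stem cell markers (10 genes) summed to 1732 to 1823 FPKM in KO cells and 1766 to 1801 FPKM in WT cells at day 0. At day 6 mesoderm markers (9 genes) summed to 258 to 400.1 FPKM in KO cells and 222 to 352 FPKM in WT cells, muscle markers (6 genes) to 233 to 347 FPKM in KO cells and 124 to 173 FPKM in WT cells, and trophoblast markers (8 genes) to 1640 to 2281 FPKM in KO cells and 1838 to 2215 FPKM in WT cells. KO and WT libraries of day 6 thus did not overlap in erythroid and muscle markers, whose part in KO against WT values was not tested. In such bulk RNA, fewer cells of a type and less of an mRNA per cell cannot be told apart.

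The starts of these genes are shown first because they carry the feature the family is known for. Each line gives 30 bases before and 20 bases from the RefSeq transcription start in GRCm38.p6, written 5′ to 3′ on the transcribed strand, with the letters CTTTC in capitals. Of the core genes, 57 of 77 had a promoter window in the RefSeq table, with 67 windows in all. The first 4 lines are core genes with CTTTC at the start, and the other 4 are paralogs, shown to compare their starts with those of core genes.
Rps10: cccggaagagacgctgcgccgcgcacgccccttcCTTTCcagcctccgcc
Rpl38: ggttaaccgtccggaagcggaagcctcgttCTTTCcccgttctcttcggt
Rplp2: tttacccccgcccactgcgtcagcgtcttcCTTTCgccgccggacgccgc
Rpl28: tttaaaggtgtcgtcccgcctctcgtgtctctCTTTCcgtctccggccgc
Rpl10l: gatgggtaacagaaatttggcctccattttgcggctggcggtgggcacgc
Rpl39l: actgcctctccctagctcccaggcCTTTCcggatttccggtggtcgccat
Rpl7l1: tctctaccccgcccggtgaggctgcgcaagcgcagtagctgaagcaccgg
Rps27l: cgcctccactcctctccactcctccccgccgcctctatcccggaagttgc
These lie at chr17:27635225-27635274 on the minus strand for Rps10, chr11:114668550-114668599 on the plus strand for Rpl38, chr7:141447621-141447670 on the plus strand for Rplp2 and chr7:4792935-4792984 on the plus strand for Rpl28. The paralog windows lie at chr12:66284382-66284431 on the minus strand for Rpl10l, chr16:10170198-10170247 on the plus strand for Rpl39l, chr17:46782637-46782686 on the minus strand for Rpl7l1 and chr9:66946056-66946105 on the plus strand for the first of the starts listed for Rps27l.

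Within 30 bases of the start, 32.8% of the 67 core windows held CTTTC on the transcribed strand, against 7.93% of the 32851 RefSeq windows of the same length. The motif of ETS transcription factors, CCGGAAG or its reverse complement CTTCCGG, was found in 37.3% of core windows, which run from 250 bases before to 50 after the start, against 8.86% of all windows. GGGCGG or CCGCCC, the box bound by Sp1, was found in 61.2% of core windows, against 35.7% of all windows. TATAAA or TTTATA was found in 8.96% of core windows, against 13.6% of all windows. None of these letter strings contains another, a match is a match of letters only, and binding was not measured.

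Core ribosomal protein mRNAs were far above the typical mRNA in FPKM. The median over the 77 core genes of the mean level in 24 libraries was 388 FPKM, against 4.16 FPKM over the 15159 genes tested. Mean levels of 71 core genes were at least 100 FPKM, those of 8 at least 1000 FPKM, and 54 core genes stood above the 99th percentile of tested genes. The highest was Rplp1, an acidic protein of the ribosomal stalk, at 2143 FPKM, followed by Rpl8 at 1966, Rps15 at 1834 and Rpl23a at 1589.6 FPKM. Across the 77 genes, which share their libraries and differ in length, levels were lower for genes with longer annotated exons (Spearman rho −0.54, a description with no test). The length here is that of all annotated exons of a gene, which can exceed its mRNA. It is 6270 bases for Rps15a, whose reference mRNA has 640 bases, and 499 bases for both in Rplp1. Ranks between core genes thus also depend on annotation.

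The 5 core genes under 50 FPKM each share sequence with another annotated row. Rpl24 had a mean of 0.721 FPKM over the 24 libraries, and its 3 sequence-sharing genes together had 64.3 FPKM, of which the processed pseudogene Gm9385 held 52.9 FPKM. Rpl34 had 15.6 FPKM, against 679.8 FPKM for Rpl34-ps1, a processed pseudogene that shares 10.9% of its 150-base windows. For Rpl29, at 20.1 FPKM, 10 genes share 43.5% of windows and held 233 FPKM in sum. Rpl30, at 37.3 FPKM, shares 24.5% of its windows with 5 genes, of which Gm12191 alone had 581 FPKM. Rpl13a, at 35.9 FPKM, shares 52.7% of its windows with the row Gm45713, which is listed at 0 in each library. These 2 rows overlap on the minus strand, at chr7:45125558-45128761 for Rpl13a and chr7:45125922-45136231 for Gm45713. Rpl24 (chr16:55966275-55971435) likewise overlaps Gm28037 (chr16:55966343-55980721), another of its sequence-sharing genes, on the plus strand. Gm28037 is also listed at 0 in each library. Over the core mRNAs a median of 27.9% of windows occurred in another annotated gene, 21 shared at least 50% and 9 shared none. The study's design text refers to uniquely mapped reads. How reads shared with copies or with overlapping rows were counted was not tested, so the levels of these 5 genes are uncertain.

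On the deposited scale, ribosomal protein mRNA summed over the 77 core genes was nearly equal in the libraries of days 0 and 3 and spread widely at days 6 and 9. At day 0 the sum was 31090.1, 32006 and 34518 FPKM in KO libraries and 35353, 31804 and 30731 FPKM in WT libraries. At day 3 it was 39055, 33528 and 36794 FPKM in KO libraries and 31525, 38299 and 35838 FPKM in WT libraries. The groups overlapped at both days, and the highest library of a group exceeded its lowest by at most 1.21-fold. At day 6 the sum was 78632, 49619 and 26172 FPKM in KO libraries and 63999, 42073 and 76015 FPKM in WT libraries. At day 9 it was 28548, 43102 and 24119 FPKM in KO libraries and 21750.3, 34890.4 and 52827 FPKM in WT libraries. KO and WT groups overlapped at both of these days too. KO day 6 held both the highest of the 24 sums, in replicate 1, and the third lowest, in replicate 3.

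**Figure D1:**
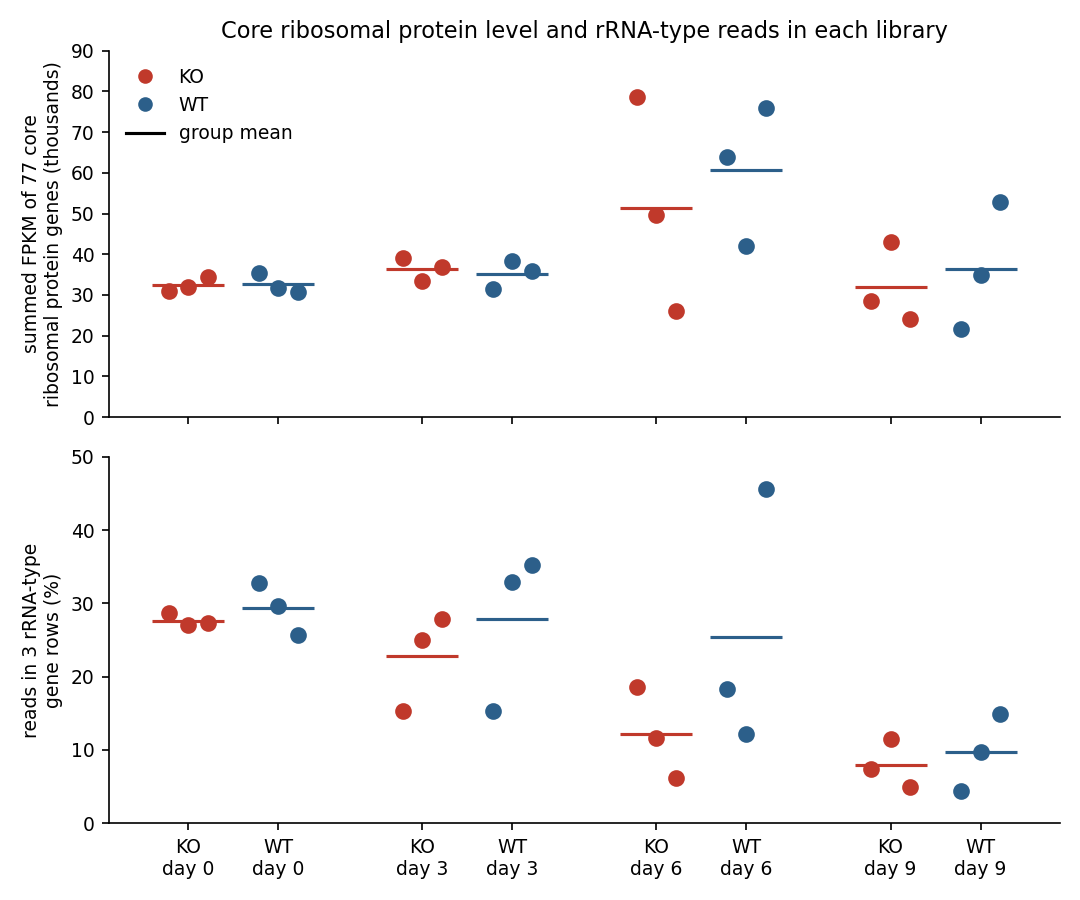
The upper panel plots the summed FPKM of the 77 core ribosomal protein genes (axis in units of 1000) in each of the 24 libraries, and the lower panel the percentage of recovered reads in 3 rRNA-type rows, by genotype and day. Points are libraries and lines are group means. Sums lie between 30731 and 39055 FPKM at days 0 and 3 and between 21750 and 78632 FPKM at days 6 and 9.

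As group means, the sum was 32538 ± 1775 FPKM in KO and 32629 ± 2419 FPKM in WT cells at day 0, and 36459 ± 2778 FPKM in KO and 35221 ± 3429 FPKM in WT cells at day 3 (SD, n = 3 each). It was 51475 ± 26280 FPKM in KO and 60696 ± 17211 FPKM in WT cells at day 6, and 31923 ± 9931 FPKM in KO and 36489 ± 15600 FPKM in WT cells at day 9. The median SD between libraries of a core gene, on the log2 scale, was 0.75 in KO day 6, 0.40 in WT day 6, 0.43 in KO day 9 and 0.61 in WT day 9. The same median over all tested genes was 0.35, 0.33, 0.22 and 0.27 in these 4 groups, so core genes varied more between libraries of a group than the typical gene did. At day 0 the order was the other way, with 0.08 for core genes and 0.11 for all tested genes in KO cells, and 0.13 and 0.18 in WT cells.

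The core genes moved up and down together from library to library. In WT day 9, all 77 core genes had the same order of the 3 libraries as their sum, which 33.8% of all tested genes had. In KO day 6 the count was 75 of 77, against 34.7% of tested genes, and in KO day 9 it was 66 of 77, against 18.4%. WT day 6 had 47 of 77 in that order, against 31.9% of tested genes.

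The rRNA-type reads and the read depth moved with this spread. The percentage of recovered reads in Gm42418, CT010467.1 and Gm23935, 3 rows known to collect ribosomal RNA reads, was 18.6, 11.6 and 6.10% in KO libraries and 18.4, 12.2 and 45.6% in WT libraries at day 6. At day 9 it was 7.34, 11.5 and 4.92% in KO libraries and 4.42, 9.78 and 14.9% in WT libraries. The order of the 3 libraries by this share was the order by core sum in each of these 4 groups. That order also matched in WT day 0, and it differed in KO day 0, KO day 3 and WT day 3. Replicate 3 of WT day 6 had the highest share of the 24 libraries. Recovered reads were 12272972, 16769004 and 17003264 in KO libraries and 11746284, 14634461 and 7855625 in WT libraries at day 6, and 18044764, 15509858 and 20319464 in KO libraries and 25274436, 16562126 and 13771131 in WT libraries at day 9. In each of these 4 groups the order by reads was the reverse of the order by core sum, and it was not in the groups of days 0 and 3. Library sums were also made equal without these 3 rows. Then 15 core genes in KO and 39 in WT cells were called higher or lower at day 6, in place of 9 and 37. The core median log2 fold change was 0.33 in KO and 0.53 in WT cells, against −0.07 and −0.18 over all tested genes. The share of all tested genes called in that fit is not given. The part of the rRNA-type share itself and of depth in the differences between libraries was not tested.

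By day 3, no core gene passed the test against day 0 in either genotype. Of all tested genes, 11.9% were higher and 16.2% lower in KO cells at day 3, and 11.4% were higher and 14.5% lower in WT cells. At an unadjusted p under 0.05, 2 core genes passed in KO and 0 in WT cells, where 38.5% and 36.1% of tested genes passed, and limma-voom on recovered reads also called 0 in either genotype. With the KO groups of days 3 and 0 fitted alone, 13 core genes passed, and the share of all tested genes in that fit is not given. The median log2 fold change of the 77 core genes was 0.17 in KO cells and 0.12 in WT cells, while the median of all tested genes was close to 0 in both. The highest was Rpl7 in KO cells, a large-subunit protein, at 0.67 (adjusted p = 0.0835), and Rps12 in WT cells at 0.55 (adjusted p = 0.261). The lowest was Rps14, a small-subunit protein, in both, at −0.21 in KO and −0.25 in WT cells. In 27 core genes every KO library of day 3 lay above every KO library of day 0, and in 2 below, where 26.6% of tested genes lay above and 30.1% below. In WT cells these counts were 15 above and 2 below, against 21.7% and 24% of tested genes.

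On the deposited scale, day 6 was the time at which core genes were called higher. In KO cells 9 of 77 core genes were higher at day 6 than at day 0 and 0 were lower, that is 11.7%, a share below the background of 21.4% of all tested genes higher, with 22.3% lower (limma, adjusted p under 0.05). In WT cells 37 of 77 were higher and 0 lower, that is 48.1%, against a background of 22.5% higher and 25.2% lower. The 9 in KO cells, among them Rps24, Rpl17, Rps19, Rpl21 and Rpl5, were 6 of 46 large-subunit and 3 of 31 small-subunit genes, while WT cells had 20 large-subunit and 17 small-subunit genes. The median log2 fold change was 0.49 in KO and 0.80 in WT cells over the core genes, and 0.03 in KO and −0.01 in WT cells over all tested genes. Every KO library of day 6 lay above every KO library of day 0 in 10 core genes and below in 1, where 26.1% of tested genes lay above and 26.7% below. In WT cells these counts were 51 above and 1 below, where 26.2% of tested genes lay above and 27.6% below. The KO count rests on single libraries: it was 48 without KO day 6 replicate 3 (62.3%, beside 24.2% of tested genes higher and 24.1% lower), 56 without replicate 3 of both genotypes, 1 without KO day 6 replicate 2 and 0 without KO day 6 replicate 1. It was 2 with the replicate number as a block and 3 with the KO groups of days 6 and 0 fitted alone, and Rpl5 was called in both. The block fit also left out the KO day 0 library without a matched replicate number, and it used the same replicate terms for all days. The effect of the block alone is thus not shown. The WT count was 17 without WT day 6 replicate 1 and also 17 without WT day 6 replicate 3, 51 without KO day 6 replicate 3, and 34 without replicate 3 of both genotypes. With no filter on low values 3 core genes were called in KO and 24 in WT cells, and with TPM scaling 50 in KO and 26 in WT cells. Under TPM the core median was 0.95 in KO and 0.70 in WT cells, against 0.40 and −0.03 over all tested genes. Except for the fit without KO day 6 replicate 3, the share of all tested genes called under these alternatives is not given.

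The difference between the genotypes in this response was not detected. The interaction test across the later days called 0 of 77 core genes, and 0 passed an unadjusted p under 0.05, where 0.594% of tested genes passed the adjusted and 4.86% the unadjusted threshold. So the counts of 9 in KO and 37 in WT cells do not show that WT cells responded more.

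Rps15 (chr10:80292453-80294114, plus strand), which sits at the head of the small subunit, had the highest log2 fold change in WT cells. It had 5096, 2505 and 949 FPKM in KO libraries at day 6, against 1101, 1067 and 1163 FPKM in KO libraries at day 0. In WT cells it had 3972, 1919.8 and 5830.1 FPKM at day 6, against 1362, 1009.9 and 1013 FPKM at day 0. All 3 WT libraries of day 6 were above all of day 0, while KO replicate 3 lay below every KO library of day 0 and the KO groups overlapped. In KO cells the log2 fold change was 1.05 (SE 0.48, adjusted p = 0.0861), and in WT cells 1.66 (SE 0.48, adjusted p = 0.00796). Without KO day 6 replicate 3 it was 1.69 in KO cells (adjusted p = 0.00393).

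Rpl36 and Rpl38, proteins of the large subunit, followed in WT cells. Rpl38 (chr11:114668524-114672331, plus strand), known in the mouse for its effect on translation of Hox mRNAs, had 2195, 1108 and 409 FPKM in KO cells at day 6, against 524, 530.2 and 566 FPKM at day 0. In WT cells it had 1354, 765 and 1999 FPKM at day 6, against 469, 456 and 453 FPKM at day 0. KO groups overlapped through replicate 3 and WT groups were apart. The log2 fold change of Rpl38 was 0.89 in KO cells (SE 0.47, adjusted p = 0.132) and 1.47 in WT cells (SE 0.47, adjusted p = 0.0138), and 1.53 in KO cells without replicate 3 (adjusted p = 0.00507). Rpl36 (chr17:56613416-56614243, plus strand) averaged 2534 ± 1778 FPKM in WT cells at day 6 and 749 ± 158 FPKM at day 0 (SD, n = 3 each), a log2 fold change of 1.52 (adjusted p = 0.0300).

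Among the core genes that passed the test in KO cells, Rps24, Rpl17 and Rps19 had the highest log2 fold changes. Rps24 (chr14:24487125-24496959, plus strand) had 355, 219 and 109 FPKM in KO cells at day 6, against 94.1, 91.2 and 104 FPKM at day 0. Rps19 (chr7:24884371-24889806, plus strand), whose human counterpart is the gene most often mutated in Diamond-Blackfan anaemia, had 366, 238 and 102 FPKM in KO cells at day 6, against 98.1, 99.01 and 108 FPKM at day 0. For Rps24 all 3 KO libraries of day 6 were above day 0, whereas for Rps19 replicate 3 lay within the range of day 0. Rpl17 of the large subunit had 1965, 1368 and 728 FPKM at day 6 in KO cells, against 554, 593 and 674 FPKM at day 0. The log2 fold changes in KO cells were 1.07 for Rps24 (SE 0.36, adjusted p = 0.0208), 1.05 for Rpl17 (SE 0.32, adjusted p = 0.0125) and 1.02 for Rps19 (SE 0.38, adjusted p = 0.0358). In WT cells the same genes had 1.45, 1.37 and 1.42, with adjusted p of 0.00271, 0.00164 and 0.00460. Without KO day 6 replicate 3 the values in KO cells were 1.52, 1.44 and 1.53 (adjusted p = 0.00112, 0.000721 and 0.00129). With the replicate block, a fit that also left out the unnumbered KO day 0 library, the adjusted p was 0.0632, 0.0374 and 0.0877. With the compared groups alone it was 0.0876, 0.0753 and 0.122. Only Rpl17 kept its call in the block fit, and none of the 3 kept it in the fit of the compared groups.

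**Figure D2:**
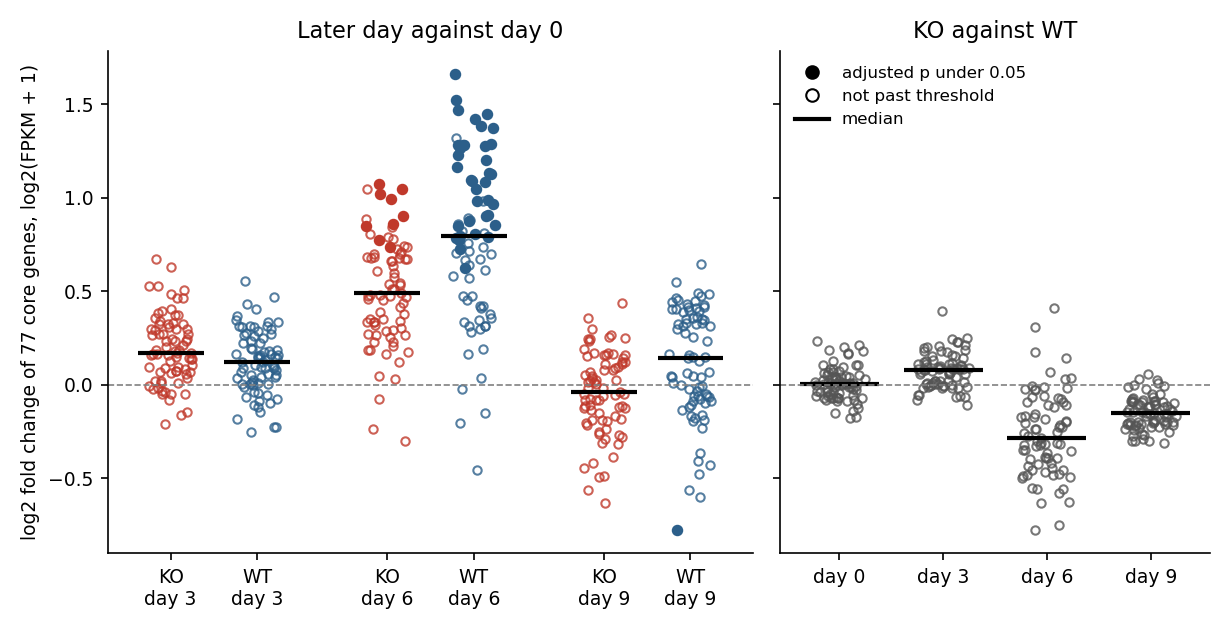
Each point is the log2 fold change of 1 of the 77 core genes on the log2(FPKM + 1) scale, later day against day 0 on the left and KO against WT on the right. Filled points passed an adjusted p under 0.05, and lines mark medians. The medians at day 6 against day 0 are 0.49 in KO and 0.80 in WT cells, and no point is filled in the KO against WT panel.

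Library by library, on the deposited scale, the rise at day 6 was broad in 5 of 6 libraries. In KO replicates 1 and 2, 74 and 73 of the 77 core genes exceeded each KO library of day 0, where 44.7% and 43.3% of tested genes did. KO replicate 3 had 10 such genes, and 59 core genes below each KO library of day 0. In WT replicates 1, 2 and 3, 73, 57 and 66 core genes exceeded each WT library of day 0, where 40.3%, 40.2% and 41.2% of tested genes did.

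Genes with roles outside bulk translation or in disease gave a mixed picture. The stalk proteins, which recruit elongation factors, had log2 fold changes at day 6 of 0.05 in KO and 0.16 in WT cells for Rplp0, 0.47 and 0.98 for Rplp1, and 0.54 and 1.32 for Rplp2, with adjusted p between 0.0770 and 0.919. Rpl5, which with Rpl11 can bind Mdm2 and so stabilise p53, averaged 281 ± 39.9 FPKM in KO cells at day 6 and 168 ± 21.8 FPKM at day 0 (adjusted p = 0.0210). In WT cells Rpl5 averaged 251 ± 54.6 FPKM at day 6 and 163 ± 40.4 FPKM at day 0 (SD, n = 3 each, adjusted p = 0.0440). Without KO day 6 replicate 3, Rpl5 had a log2 fold change of 0.84 in KO cells (adjusted p = 0.0163), Rpl11 of 0.86 (0.0159) and Rps6 of 0.84 (0.0142). Rpl11 had log2 fold changes of 0.48 in KO and 0.70 in WT cells (adjusted p = 0.209 and 0.0629). Rps6, the target of S6 kinase, had 0.60 in KO and 0.61 in WT cells (adjusted p = 0.0678 and 0.0572). Rps27a, made as a fusion with ubiquitin, averaged 801 ± 81.4 FPKM in WT cells at day 6 and 408 ± 30.3 FPKM at day 0 (SD, n = 3 each), a log2 fold change of 0.97 (adjusted p = 0.0120). Rpsa, also called the laminin receptor, had 0.39 in KO and 0.88 in WT cells, and Rpl10a had 0.18 and 0.38 (adjusted p of the 4 values at least 0.0780). Of 18 genes whose human counterparts are linked to Diamond-Blackfan anaemia, 5 were higher in KO and 10 in WT cells at day 6 and 0 lower, with Rps24 and Rps19 leading in both. That is 27.8% in KO cells, near the 21.4% of all tested genes, and 55.6% in WT cells, beside 22.5%. In KO cells 14 of the 18 were higher without KO day 6 replicate 3.

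At day 9, on the deposited scale, few core genes passed the test against day 0, and single libraries lay on either side of day 0. In KO replicates 1, 2 and 3, 5, 68 and 1 of the 77 core genes exceeded each KO library of day 0, and 51, 6 and 64 lay below each. In WT replicates 1, 2 and 3, 0, 39 and 70 exceeded each WT library of day 0, and 64, 14 and 2 lay below each. Of all tested genes, 39.4% to 43.3% lay above and 40.3% to 43.9% below in these 6 libraries. In KO cells 0 of 77 core genes passed the test against day 0, where 22.4% of tested genes were higher and 22.7% lower, and 1 core gene had an unadjusted p under 0.05, where 51.2% of tested genes had one. In WT cells 0 were higher and 1 was lower, where 22.2% of tested genes were higher and 23.8% lower, and 2 had an unadjusted p under 0.05, against 52.2% of tested genes. limma-voom on recovered reads called 1 core gene in each genotype. The median log2 fold change was −0.04 in KO and 0.15 in WT cells. As a share of recovered reads, core genes held 5.45% to 8.38% in KO and 5.14% to 9.28% in WT libraries at day 9. At day 0 these shares were 4.29% to 4.76% in KO and 4.30% to 4.64% in WT libraries. Without the rRNA-type rows the day 9 shares were 5.73% to 9.47% in KO and 5.38% to 10.9% in WT libraries. The day 0 shares were then 6.02% to 6.54% in KO and 6.24% to 6.39% in WT libraries. The 1 gene that fell, Rps2 (chr17:24718116-24721929, plus strand), a small-subunit protein at the mRNA entry channel, had 730.4, 791 and 499 FPKM in KO cells at day 9, against 997, 1017 and 1059.7 FPKM at day 0. In WT cells it had 419, 714 and 856 FPKM at day 9, against 1326, 1011 and 965 FPKM at day 0. Each day 9 library was below each day 0 library in both genotypes, with a log2 fold change of −0.63 in KO cells (SE 0.26, adjusted p = 0.0542) and −0.78 in WT cells (SE 0.26, adjusted p = 0.0187). The call of Rps2 in WT cells was lost without WT day 0 replicate 1 (adjusted p = 0.0909) and without WT day 9 replicate 1 (adjusted p = 0.131), and the WT count of core genes was then 0 and 3, and 4 without WT day 9 replicate 3. Rplp0 and Rpl8 were next, at −0.56 and −0.49 in KO and −0.60 and −0.56 in WT cells, none past the threshold. With sums scaled to be equal (TPM), which moves the median of all tested genes by 0.70 in KO and 0.78 in WT cells, 45 core genes were called in KO and 64 in WT cells at day 9, and Rps2 in WT cells had a log2 fold change of 0.23. All 77 core genes were then above 0 in both genotypes, with medians of 0.85 in KO and 1.14 in WT cells. Relative to the median of all tested genes these medians were 0.15 and 0.37. The share of all tested genes called under TPM is not given.

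No core gene passed the test between KO and WT cells. At days 0, 3, 6 and 9, 0 of 77 core genes were called between KO and WT cells, where 0.0132%, 0.0132%, 0.726% and 0.963% of tested genes were called. None reached an unadjusted p under 0.05 at any day, against 1.11%, 0.798%, 10% and 5.2% of tested genes, and limma-voom on recovered reads called 0 at each day. The mean over days also gave 0, where 0.198% of tested genes were called and 3.81% had an unadjusted p under 0.05. At day 3, where same-numbered libraries deviated together, a fit with the replicate block also called 0 core genes by adjusted and by unadjusted p, where 0% and 0.97% of tested genes passed. The counts of 0 by adjusted p held under each of the alternatives run. The median log2 fold change of KO over WT was 0.00, 0.08, −0.28 and −0.15 at days 0, 3, 6 and 9. At day 6 it was 0.25 without replicate 3 of both genotypes, with 73 of 77 genes above 0, in place of 7 of 77. Under TPM scaling the day 6 median was 0.44, or −0.11 relative to the median of all tested genes, so its sign depends on these choices.

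The precision of that comparison was limited. The 95% interval of a KO over WT log2 fold change reached 0.68 to either side in the median core gene, and 0.40 to 1.26 over the 77. The extremes were Rpl38 at 0.23 (95% interval −0.74 to 1.21) and Rpl15 at −0.18 (−0.58 to 0.22) at day 0, and Rpl29 at 0.40 (−0.14 to 0.93) and Rpl8 at −0.11 (−0.87 to 0.65) at day 3. With the block the intervals at day 3 were −0.01 to 0.80 for Rpl29 and −1.02 to 0.80 for Rpl8, and reached 0.79 to either side in the median core gene. At day 6 they were Rpl29 at 0.41 (−0.12 to 0.94) and Rplp2 at −0.77 (−2.03 to 0.48), and at day 9 Rps2 at 0.06 (−0.49 to 0.60) and Rplp1 at −0.31 (−1.37 to 0.74). Each interval includes 0. Every KO library lay above every WT library in 3 core genes at day 0 and 2 at day 3, and below in 2 at day 0 and 0 at day 3, where 3.4% and 1.5% of tested genes lay above and 4.11% and 2.3% below. At days 6 and 9 the KO and WT groups of each core gene overlapped, where 4.18% and 6.41% of tested genes lay above and 3.73% and 4.08% below.

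Because the core genes rise and fall together between libraries, each was also set against the median of the 77 in its own library. Relative to that median, 10 core genes were higher without overlap at day 6 than at day 0 in both genotypes, where 5.79% of tested genes were. Rpl9, Rpl17, Rpl21, Rps19 and Rps24 were among them. Another 12 were lower without overlap in both, where 26.4% of tested genes were, among them Rpl7a, Rpl8, Rpl15, Rpl19, Rplp0, Rps2 and Rps3. Without KO day 6 replicate 3 the counts were 19 higher and 16 lower, against 6.04% and 49% of tested genes. At day 9 the counts were 11 higher and 19 lower, against 14.2% and 19.1% of tested genes. Both days gave 5 higher, with Rpl9, Rpl17 and Rps19 among them, and 10 lower, with Rpl7a, Rpl8, Rpl15, Rpl19, Rplp0 and Rps2 among them, against 5.13% and 17%. The contrasts of days 6 and 9 share the day 0 libraries of their genotype. Core genes must lie on both sides of their own median, and where that median rises, other genes move down on this scale. The shares of tested genes given here thus partly follow from the centring and are no yardstick for the core counts.

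**Figure D3:**
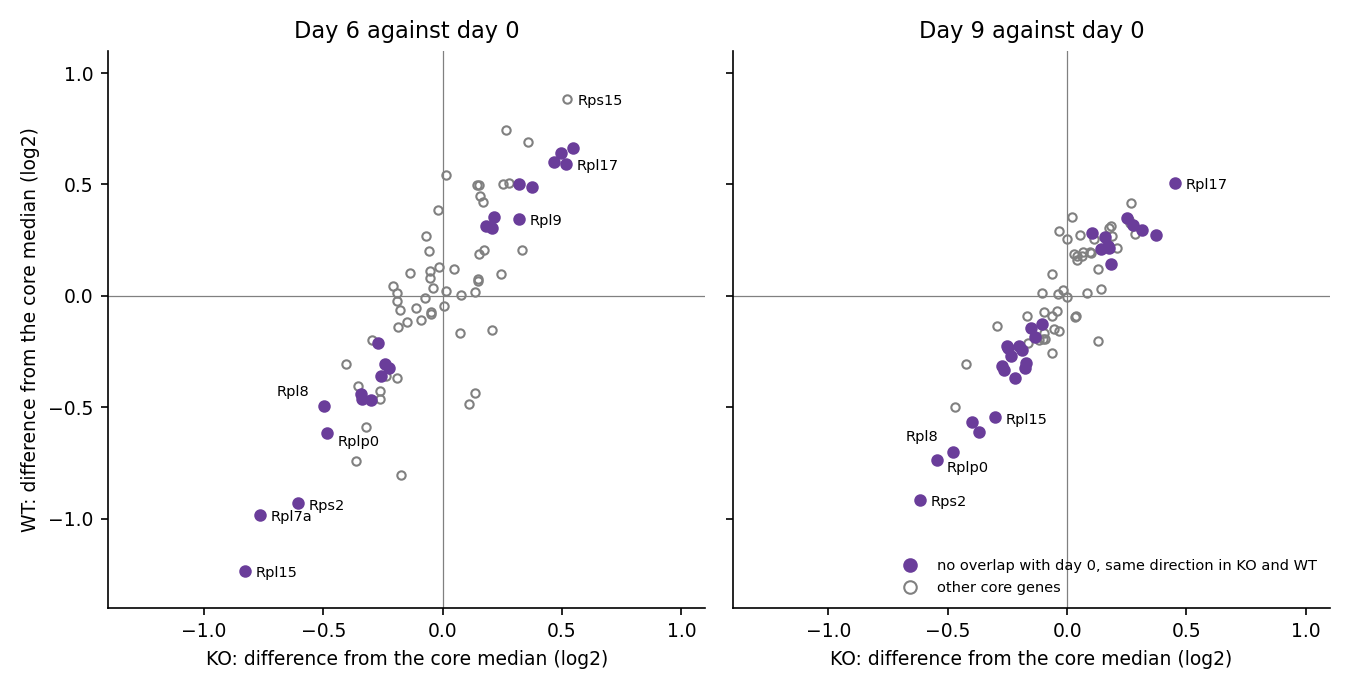
Each point is a core gene, placed by its change relative to the median of the 77 core genes (log2) at the later day against day 0, KO cells on the horizontal axis and WT cells on the vertical axis. Filled points did not overlap day 0 in either genotype and went the same way in both. Rpl15, Rpl7a and Rps2 lie lowest at day 6, Rps2 lies lowest at day 9, and Rpl17 lies highest at day 9.

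The spread of these relative changes was wider at day 6 than at day 9. On this scale Rpl15, a large-subunit protein, was lowest at day 6 at −0.83 in KO and −1.23 in WT cells, and Rps2 was lowest at day 9 at −0.62 in KO and −0.91 in WT cells. Rpl17 was highest at day 9, at 0.45 in KO and 0.51 in WT cells. A fit on values scaled to an equal geometric mean of the 77 core genes, chosen after seeing the data, gave 6 core genes higher and 7 lower in KO cells at day 6, where 10.1% and 28.5% of tested genes were called. It gave 20 higher and 14 lower in WT cells, where 8.73% and 38.6% were called. At day 9 it gave 2 higher and 3 lower in KO cells (background 19.6% and 16.7%) and 5 higher and 5 lower in WT cells (background 17% and 20.6%). Its adjusted p for Rps2 was 0.0134 in KO and 0.000341 in WT cells at day 6, and for Rpl17 it was 0.00112 and 0.000358. At day 3 it called Rps12 alone, higher at 0.43 in both KO and WT cells (adjusted p = 0.00717 and 0.00807), where 5.87% of tested genes were higher in KO and 6.85% in WT cells. In this fit the median log2 fold change of all tested genes at day 6 was −0.31 in KO and −0.53 in WT cells. Its background shares thus also follow in part from the scaling and are no yardstick for the core counts.

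The changes were also set against properties of the mRNAs. Across the 77 core genes, which share libraries, the Spearman correlation of the log2 fold change with mRNA length was −0.18 in KO and −0.26 in WT cells at day 6. With the GC content of the mRNA it was −0.22 in KO and −0.01 in WT cells at day 6, and −0.39 in KO and −0.44 in WT cells at day 9. The share of windows found in another gene gave −0.18 in KO and −0.20 in WT cells at day 6. These are descriptions over genes, with no test.

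Several paralogs fell after day 0. Rpl3l passed the filter on low values through day 0 libraries alone, so its values are given below as a description. Of the other 6 paralogs tested, 3 (Rpl7l1, Rpl10l and Rpl39l) were lower than at day 0 at each of days 3, 6 and 9 in both genotypes, where the background was 14.5% to 25.2% of tested genes lower. Rps4l, annotated as a transcribed processed pseudogene and so outside the rule, fell in the same way. Rpl22l1 rose at day 6 in both genotypes. Rps27l and Rps27rt had no call at any time, and Rpl36al, with a mean of 0.541 FPKM over the 24 libraries, was not tested. Between KO and WT cells 0 of 7 were called at any day, and for Rpl10l the mean log2 fold change over days was 0.05 (95% interval −0.32 to 0.41).

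Rpl10l (chr12:66283379-66284401, minus strand), an intronless paralog of the X-linked Rpl10 that is needed for male meiosis in the mouse, had the lowest log2 fold changes on the log2(FPKM + 1) scale. It had 119, 122 and 103 FPKM in KO and 115, 135 and 121 FPKM in WT cells at day 0. At day 3 it had 5.48, 4.90 and 4.86 FPKM in KO and 5.02, 6.95 and 3.31 FPKM in WT cells, and at day 6 2.08, 0.847 and 1.12 FPKM in KO and 0.773, 0 and 2.69 FPKM in WT cells. Day 9 libraries had 1.14, 3.65 and 1.70 FPKM in KO and 1.57, 2.54 and 2.24 FPKM in WT cells. No later library came near the lowest of day 0, and the genotypes overlapped at each day. The log2 fold change against day 0 was −4.25, −5.65 and −5.27 at days 3, 6 and 9 in KO cells (adjusted p = 1.15e-08, 7.57e-11 and 1.76e-10). In WT cells it was −4.39, −6.05 and −5.33 (adjusted p = 7.02e-09, 3.32e-11 and 1.69e-10). As a percentage of Rpl10, whose own FPKM stayed between 341 and 808, the mean was 24.8% in KO and 25.8% in WT cells at day 0, 1.04% and 1.03% at day 3, 0.230% and 0.175% at day 6, and 0.458% and 0.446% at day 9. This ratio is taken within a library and does not depend on the scale between libraries.

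Rpl39l (chr16:10170226-10174911, plus strand), the testis paralog of Rpl39, had 6.47, 8.82 and 10.3 FPKM in KO and 10.7, 6.79 and 8.54 FPKM in WT cells at day 0. At day 6 it had 0.111, 0 and 0.0597 FPKM in KO and 0.423, 0.142 and 0.276 FPKM in WT cells. By day 9 it had 0.325, 2.05 and 1.11 FPKM in KO and 0.792, 1.502 and 1.38 FPKM in WT cells, above each library of day 6 of the same genotype and below all of day 0. The log2 fold change was −3.15 at day 6 and −2.20 at day 9 in KO cells (adjusted p = 1.47e-09 and 2.09e-07), and −2.91 and −2.12 in WT cells (adjusted p = 5.26e-09 and 3.71e-07). As a ratio of mean FPKM, day 6 over day 0, it stood at 0.00668 in KO and 0.0323 in WT cells, where Rpl10l stood at 0.0117 and 0.00934, so which of the genes fell further depends on the scale and the genotype. Its line is the only one of the 4 paralog lines printed above that holds CTTTC. There the letters lie before the transcription start, while in the printed core lines they begin at or after it. The core lines were picked for CTTTC at the start, so this contrast was fixed by the choice and says nothing about core genes in general.

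Rpl3l (chr17:24727820-24736143, plus strand), the striated muscle paralog of Rpl3, was low throughout, at 0.616, 1.299 and 0.616 FPKM in KO and 1.04, 0.763 and 1.12 FPKM in WT cells at day 0. At day 9 it had 0.0274, 0.134 and 0.135 FPKM in KO and 0.0871, 0.0304 and 0.164 FPKM in WT cells. All libraries of day 9 were below those of day 0. The 3 libraries that reached 1 FPKM, and so brought it past the filter, were all of day 0, and no test of it is given. Muscle markers (6 genes: Acta2, Tagln, Actc1, Myh6, Myl7 and Tnnt2) summed at day 9 to 1265 to 2078 FPKM in KO and 755 to 1415 FPKM in WT cells, against 17.3 to 31.7 FPKM in KO and 32.1 to 35.6 FPKM in WT cells at day 0.

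**Figure D4:**
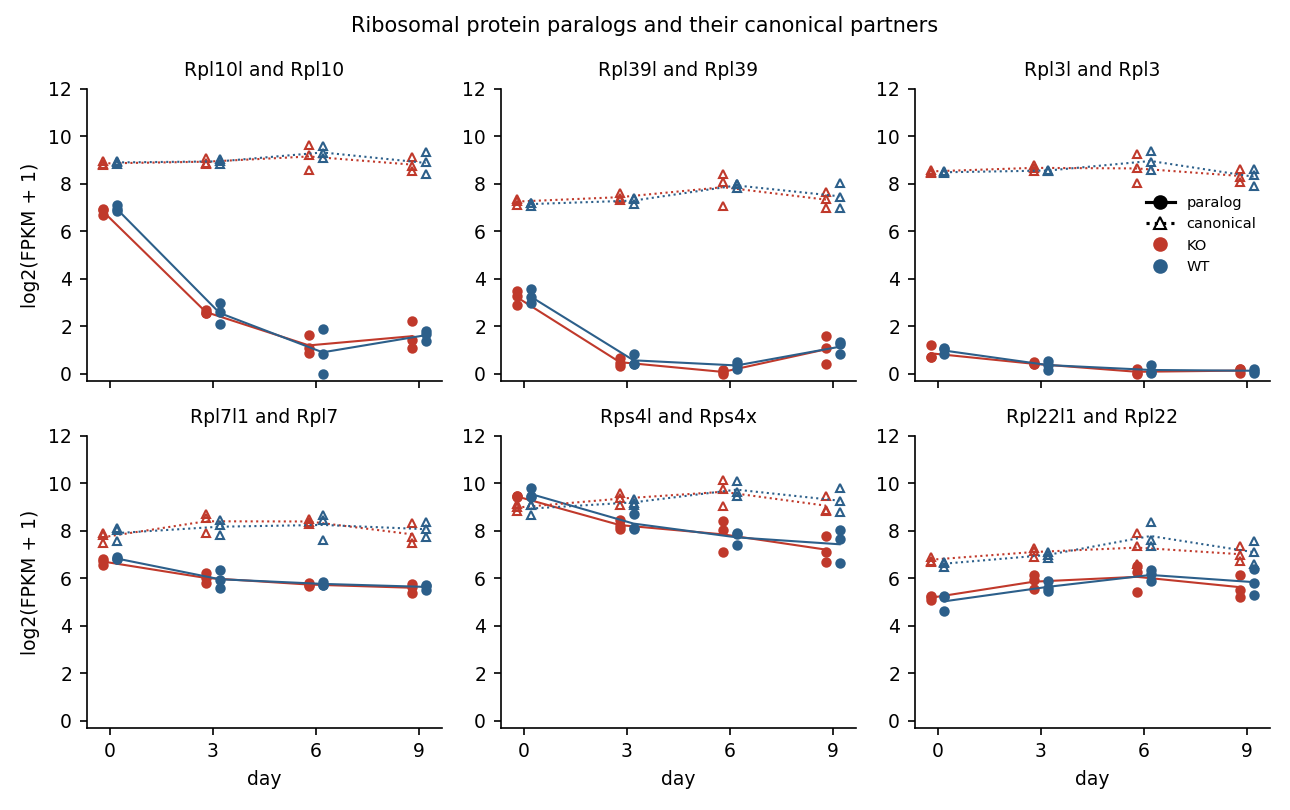
Levels of 6 paralogs (filled circles, solid lines) and of the canonical gene each resembles (open triangles, dotted lines) in log2(FPKM + 1) by day, KO in red and WT in blue, with a point per library and lines through group means. Rpl10l is far lower at days 3, 6 and 9 than at day 0 in both genotypes, while Rpl10 shows no such drop.

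Rpl7l1 (chr17:46773907-46782672, minus strand), which resembles Rpl7, had 110.3, 106 and 94.8 FPKM in KO and 118, 111 and 112 FPKM in WT cells at day 0. At day 6 it had 54.9, 52.1 and 50.1 FPKM in KO and 56.9, 51.2 and 52.2 FPKM in WT cells, all below day 0. Its log2 fold change at day 6 was −0.97 in KO and −1.07 in WT cells (adjusted p = 9.20e-05 and 2.99e-05). As a share of Rpl7 it averaged 49.7% in KO and 48.4% in WT cells at day 0, and 15.6% in KO and 18.5% in WT cells at day 6.

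Rps4l (chr6:148354656-148355598, plus strand) was the most abundant of them. It had 713, 705 and 681 FPKM in KO and 884, 681 and 707 FPKM in WT cells at day 0, above its canonical partner Rps4x, of which it was 139% in KO and 159% in WT cells. At day 6 it had 339.9, 262 and 137 FPKM in KO and 234, 167 and 241 FPKM in WT cells, or 28.8% and 25.4% of Rps4x. Every library of day 6 was below every library of day 0. Its log2 fold change at day 9 was −2.24 in KO and −2.12 in WT cells (adjusted p = 1.76e-05 and 3.39e-05).

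Rpl22l1 (chr3:28805436-28807424, plus strand), the paralog of the RNA-binding protein Rpl22, went the other way. It had 90.3, 75.3 and 41.9 FPKM in KO cells at day 6, against 33.4, 35.6 and 36.8 FPKM at day 0, and 80.5, 71.3 and 58.7 FPKM in WT cells at day 6, against 23.9, 37.0 and 36.1 FPKM at day 0. All libraries of day 6 were above those of day 0. The log2 fold change was 0.88 in KO (SE 0.30, adjusted p = 0.0201) and 1.11 in WT cells (SE 0.30, adjusted p = 0.00435), 1.20 in KO cells without replicate 3 (adjusted p = 0.00221), and at day 9 it was 0.45 in KO (adjusted p = 0.236) and 0.81 in WT cells (adjusted p = 0.0308). Rps27l, known as a p53 target, had log2 fold changes of 0.01 in KO and 0.25 in WT cells at day 6 (adjusted p = 0.985 and 0.387).

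Of the members with pseudogene names, 6 of 9 were tested. Rpl36a-ps1 averaged 38.7 ± 23.2 FPKM in WT cells at day 6 and 13.4 ± 1.11 FPKM at day 0, and Rpl9-ps6 109 ± 47.7 FPKM and 44.3 ± 2.08 FPKM (SD, n = 3 each). Both were called higher (adjusted p = 0.0162 and 0.0245), and no other comparison called any of the 6 or Rps19bp1. Rpl9-ps1 is listed at 0 in each library. Fau, whose product is cut into a small-subunit protein and a ubiquitin-like one and which the rule does not take, averaged 1288 ± 658 FPKM in WT cells at day 6 and 455 ± 94.3 FPKM at day 0 (adjusted p = 0.0195).

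Genes that build ribosomes were mostly lower at days 6 and 9. Of 55 ribosome assembly factors, 1 was higher and 25 lower in KO cells at day 6, and 0 were higher and 27 lower in WT cells, with median log2 fold changes of −0.52 and −0.64. The lower genes were 45.5% of the list in KO and 49.1% in WT cells, beside 22.3% and 25.2% of all tested genes. At day 9, 0 were higher and 35 lower in KO cells and 0 higher and 33 lower in WT cells, with medians of −0.92 and −0.88, beside the 22.7% and 23.8% of all tested genes that were lower. Heatr1, a factor of the small-subunit processome, averaged 11.9 FPKM in KO cells at day 6 and 33.6 FPKM at day 0, and 8.72 FPKM in WT cells at day 6 and 34.3 FPKM at day 0. Its log2 fold change was −1.49 in KO and −1.90 in WT cells (adjusted p = 9.80e-05 and 5.58e-06). In KO cells at day 6, 0 were higher and 25 lower without replicate 3. At day 3, 8 assembly factors were higher and 2 lower in KO cells and 0 higher and 2 lower in WT cells, and the 14.5% higher in KO cells were near the 11.9% of all tested genes; Gnl3, the nucleolar GTPase nucleostemin, had 1.29 in KO cells (adjusted p = 0.0117). The interaction test called 0 of the 55.

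Some genes for the transcription of ribosomal DNA were lower at days 6 and 9. Of 19 tested genes of RNA polymerase I and its factors, 1 was higher and 7 lower in KO cells and 0 higher and 6 lower in WT cells at day 6, and 0 higher and 12 lower in KO and 0 higher and 8 lower in WT cells at day 9. The lower genes were 36.8% in KO and 31.6% in WT cells at day 6, beside 22.3% and 25.2% of all tested genes, and 63.2% and 42.1% at day 9, beside 22.7% and 23.8%. The day 6 counts in KO cells were 0 higher and 7 lower without replicate 3. Rrn3, which brings the polymerase to the promoter, averaged 22.9 FPKM in KO cells at day 6 and 90.03 FPKM at day 0, and 22.5 FPKM in WT cells at day 6 and 88.3 FPKM at day 0. Its log2 fold change was −1.94 in KO and −1.98 in WT cells (adjusted p = 4.09e-07 and 3.48e-07). Of 31 translation factors, 1 was higher and 7 lower in both KO and WT cells at day 6, a share of lower genes near that of all tested genes. Pabpc1, the cytoplasmic poly(A)-binding protein, was among those that fell, with −1.27 in KO and −1.25 in WT cells (adjusted p = 5.21e-05 and 6.47e-05). Tpt1 rose by 0.92 in KO cells (adjusted p = 0.00163), with means of 561 FPKM at day 6 and 293 FPKM at day 0. In WT cells its means were 553 FPKM at day 6 and 308 FPKM at day 0.

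Mitochondrial ribosomal protein genes, which make the ribosome of the organelle, were called in both directions. Of 77 tested, 4 were higher and 19 lower in KO cells and 8 higher and 20 lower in WT cells at day 6, and the lower ones, 24.7% and 26.0%, were near the share of all tested genes. Leaving out KO day 6 replicate 3 gave 10 higher and 15 lower in KO cells. Mrps2 fell by 1.58 in KO and 1.55 in WT cells, and Mrps21 rose by 1.18 in KO and 1.60 in WT cells on the log2 scale (adjusted p between 6.09e-08 and 0.00849). Between KO and WT cells 0 genes of the assembly, polymerase I, translation factor and mitochondrial lists were called at any day.

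**Figure D5:**
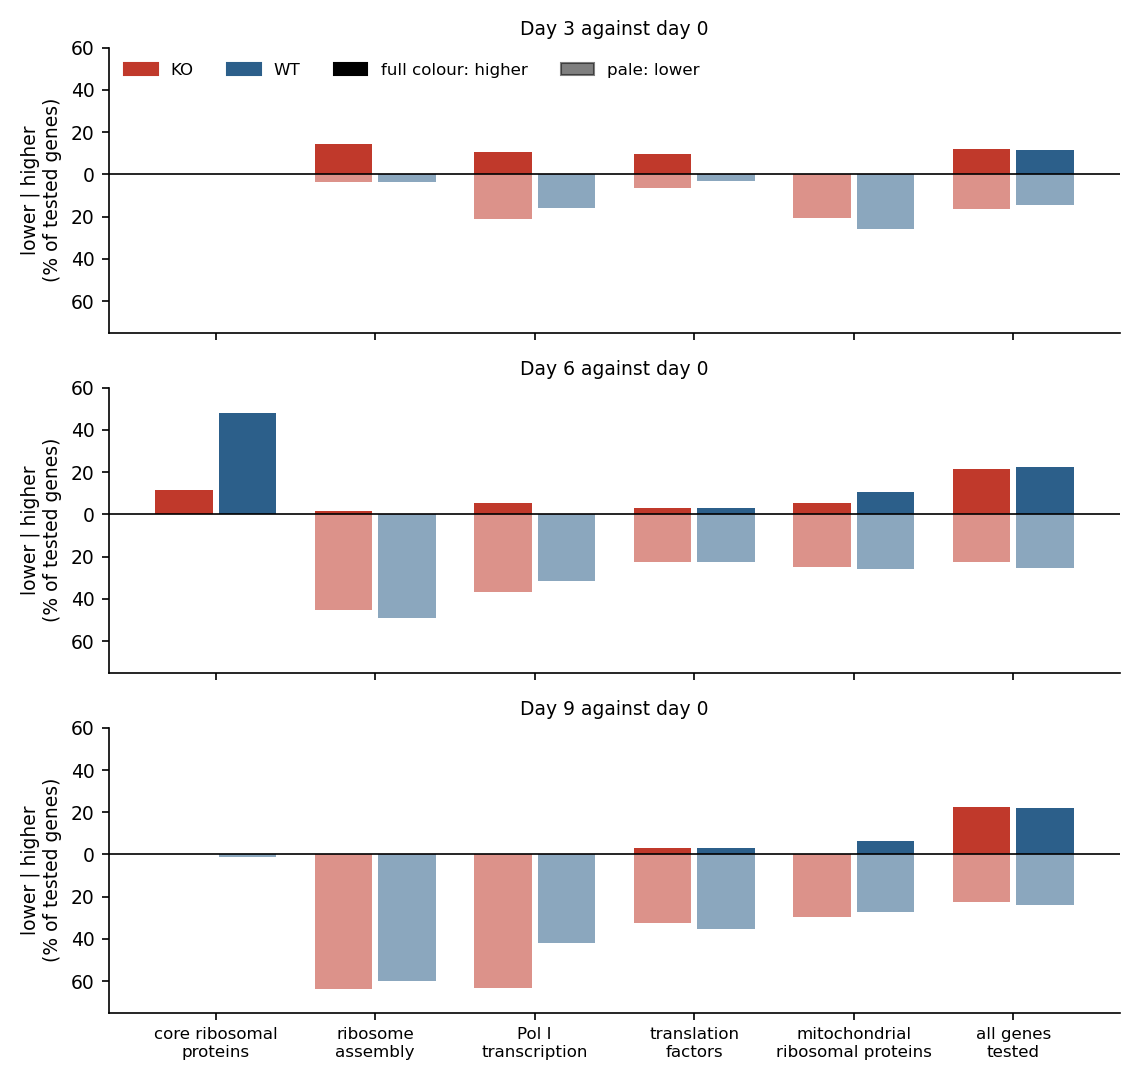
Percentage of tested genes in each list called higher (full colour, upwards) or lower (pale, downwards) than at day 0 at adjusted p under 0.05, for days 3, 6 and 9, KO in red and WT in blue. Core ribosomal protein genes are called higher at day 6 alone, with 11.7% in KO and 48.1% in WT cells, while assembly factors are mostly lower at days 6 and 9.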

How the data were processed

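Values were the FPKM deposited by the authors for 53465 genes in 24 libraries. Per the submitters' processing notes, the authors used HISAT2 2.2.1 with the mm10 genome and featureCounts 2.0.1, besides R 4.1.0, DESeq2 1.30.1, Trimmomatic 0.39 and FastQC 0.11.9, and the design text says that uniquely mapped reads were identified. The sources used here give neither the strand setting nor the annotation release. One KO column of day 0 carries no replicate number that the labels match and was used by its group. The fits with a replicate block left this library out. Rows that reached 1 FPKM in 3 or more libraries (15159) entered the test on log2(FPKM + 1) with limma 3.58.1 (R 4.3.3), trended prior, 8 groups in 1 fit, two-sided, with Benjamini-Hochberg adjustment and a threshold of 0.05. Fold changes on this scale understate those of low genes. Reads per gene were recovered from the FPKM steps and exon lengths of GENCODE vM21, which gave a length for 53360 rows. Of values up to 50 reads, 95.5% to 96.9% came within 0.05 of a whole number, and these reads gave depths and the limma-voom alternative, with library sizes scaled by the median ratio to the geometric mean. Shared sequence was counted in windows of 150 bases. Depth limits precision through counting error, and any other effect of depth was not tested. Other steps used Python 3.11.15 with scipy 1.17.1, pandas 2.3.3, matplotlib 3.10.9 and numpy 2.4.6. The main fit was tested on simulated data for KO against WT at day 6 alone, with noise drawn independently for each gene. The other comparisons and the alternatives were not simulated. Named genes were Atf3, the paralogs, genes with known roles, the highest and lowest levels and, per comparison and list, up to 3 of the largest changes past the threshold. Some members are counted but not reported by name here. Members and lists were chosen with earlier results of these data known. Reads of 2 libraries of a group differed with a chi-square per degree of freedom of 7.15 to 271, and none was treated as a copy. Same-numbered KO and WT libraries deviated together at day 3 (correlations 0.60 to 0.66), so these numbers were taken to pair them, but not at day 6 (−0.47 to 0.26) or 9 (−0.46 to 0.20). Alternatives were other scalings, pseudocounts, filters, a replicate block, compared groups alone and each library left out.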

Additional observations from a re-analysis of the deposited data

How the results depend on the processing

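Counts of core genes called between KO and WT cells, and in the interaction, were 0 under each alternative run. For day 6 against day 0 in KO cells, 9 as reported, the count was 3 with the compared groups alone, 50 with equal sums (TPM), 15 with equal sums without the rRNA-type rows, 14 with equal upper quartiles, 3 with no filter and 56 without replicate 3 of both genotypes. In WT cells at day 6, 37 as reported, it was 24 with no filter. For KO cells at day 3, 0 as reported, the count was 13 with the compared groups alone, 5 without the rRNA-type rows, and 1 with equal upper quartiles, with equal core level and without both day 6 replicates 3. For WT cells at day 3, 0 as reported, it was 1 with the compared groups alone and with equal core level, and 2 without the rRNA-type rows. For KO cells at day 9, 0 as reported, it was 45 with TPM, 5 with equal core level, 2 without the rRNA-type rows, and 1 with the compared groups alone, with limma-voom and without both day 6 replicates 3. For WT cells at day 9, 1 as reported, it was 64 with TPM, 10 with equal core level, 9 without the rRNA-type rows, 2 with equal upper quartiles and 0 with the compared groups alone. These counts stand without the share of all tested genes called, so they show only how the core counts moved.

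Leaving out 1 library at a time, the counts ranged over 0 to 48 in KO and 17 to 51 in WT cells at day 6, 0 to 1 in KO and 0 to 4 in WT cells at day 9, and 0 to 1 in KO and 0 in WT cells at day 3. With a replicate block and without the unnumbered KO day 0 library, 2 core genes were called in KO and 29 in WT cells at day 6. The block fit changed no call of a core gene between KO and WT cells.

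Of 155 results for named genes, 79 kept their call under TPM, 67 lost it and 3 changed sign. These were Rps2 in WT cells at day 9 (log2 fold change 0.23) and Zmat3, a p53 target, in KO cells at day 6 (0.016) and in WT cells at day 9 (0.22). TPM moved the median of all tested genes by 0.40 in KO cells at day 6, and the cause was not tested. Rpl3l had no value under the 3 scalings, since it no longer passed the filter. Precision for Rpl3l and Rpl39l after day 0 is limited by depth, since values there rest on few reads.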

Other observations

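Some regulators of ribosomal protein genes changed in both genotypes. Of 26 tested (Myc family members, mTOR pathway genes and transcription factors), 2 were higher and 4 lower in KO cells at day 3 and 3 higher and 1 lower in WT cells, and at day 9, 3 were higher and 8 lower in KO and 2 higher and 9 lower in WT cells. The lower genes at day 3 were 15.4% in KO and 3.85% in WT cells, beside 16.2% and 14.5% of all tested genes, and at day 9 30.8% and 34.6%, beside 22.7% and 23.8%. Myc, which activates ribosome production, averaged 2.00 ± 0.678 FPKM in KO cells at day 3 and 15.9 ± 4.65 FPKM at day 0, and 2.65 ± 1.21 FPKM in WT cells at day 3 and 22.4 ± 4.90 FPKM at day 0 (SD, n = 3 each). Its log2 fold change was −2.48 in KO and −2.72 in WT cells (limma, adjusted p = 1.93e-05 and 6.42e-06). Mxd4, an antagonist of Myc, averaged 7.42 FPKM in KO cells at day 6 and 0.506 FPKM at day 0, and 13.1 FPKM in WT cells at day 6 and 0.539 FPKM at day 0 (log2 fold change 2.26 and 3.04, adjusted p = 5.21e-05 and 1.39e-06). Sp1 fell by 1.41 in KO and 1.43 in WT cells at day 6 on the log2 scale (adjusted p = 0.000101 and 8.48e-05). Without KO day 6 replicate 3, 4 of the 26 were higher and 4 lower in KO cells at day 6. That is 15.4% each, below the 24.2% and 24.1% of all tested genes. The day 6 counts of this list with all libraries are not given.

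Of 10 genes of p53 surveillance, through which unused ribosomal proteins act, 1 was higher and 2 lower in KO cells and 1 higher and 1 lower in WT cells at day 6, that is 10% higher and 20% lower in KO and 10% and 10% in WT cells, below the 21.4% and 22.3% of all tested genes in KO and the 22.5% and 25.2% in WT cells. Trp53 averaged 62.4 FPKM in KO cells at day 6 and 148 FPKM at day 0, and 61.4 FPKM in WT cells at day 6 and 153 FPKM at day 0, with log2 fold changes of −1.24 and −1.29 (adjusted p = 8.37e-05 and 5.04e-05). Phlda3, a p53 target, rose by 1.28 in KO and 1.15 in WT cells (adjusted p = 5.12e-05 and 0.000160). Between KO and WT cells 0 genes of either list were called at any day.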
